A study of Mus musculus with 8 samples.

Results

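A short hairpin RNA against Thbs2 was tested in whole mouse liver with a vector named for alpha smooth muscle actin (αSMA). The comparison holds 4 of the 8 libraries of the series, all those made with the αSMA vector. The hairpin mice carried AAV6-αSMA-shThbs2 (replicates 3 and 4, here the shThbs2 livers), and the controls AAV6-αSMA-NC (replicates 3 and 4, here the NC livers). What both groups share is the virus, AAV6, an adeno-associated virus of serotype 6, and the αSMA name of its vector. Strain, sex, age, dose, time after injection and any liver injury are not given in the sources used here, and there is no liver without virus. Which cells carried the vector was not measured, and every value is from RNA of whole liver, most of which comes from hepatocytes.

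Hepatic stellate cells are the vitamin A-storing pericytes of the liver sinusoid. On injury they turn into contractile myofibroblasts that express αSMA (Acta2) and lay down collagen under the control of TGF-β. Thrombospondin-2, the product of Thbs2, is a secreted matricellular glycoprotein that binds matrix proteases and the cell surface receptors CD36 and CD47. In bulk tissue, fewer cells of a type and less RNA per cell cannot be told apart.

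The values are FPKM, fragments per kilobase of transcript scaled to the mapped fragments of the library, as the authors deposited them. Features with an Ensembl identifier were tested if their 4 libraries averaged 1 FPKM or more, which 12319 did. The test was limma on log2(FPKM + 1), two-sided, with a threshold of 0.05 on the Benjamini-Hochberg adjusted p, first on the values as deposited and then after centring each library on its median. Each log2 change is the mean of shThbs2 minus the mean of NC on that scale, so it understates changes of genes near 1 FPKM. "Rose" and "fell" are used of features that passed as deposited, and the centred result is given where it did not pass. As a further alternative each library was rescaled to the same FPKM sum, called sum-scaled below. Each count of a gene list is followed by the counts higher and lower when centred and when sum-scaled, and without an shThbs2 library where that moved the larger count, if 4 or more, by over 1.5 times. A list median is followed by its value where a scaling turned its sign or a left-out library moved it by over 1.5 times and at least 0.05. Of all tested features, 13.6% rose and 24.8% fell as deposited, 21.2% and 14.8% centred, and 6.83% and 47.9% sum-scaled, and the lists are read against these shares. Without NC replicate 3 at most 3 members of any list passed in 1 direction, and without NC replicate 4 at most 2. The design text counts mice, so each library was taken as 1 animal.

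Thbs2 (ENSMUSG00000023885, chromosome 17, 14665500 to 14694235, minus strand, GRCm38) measured 0.85 and 1.14 FPKM in the shThbs2 livers, against 1.37 and 1.47 FPKM in the NC livers. The groups did not overlap, and the mean was 29.9% lower in the shThbs2 livers. As deposited, its log2 change was −0.28 with an SE of 0.18 and a 95% interval of −0.74 to 0.17 (adjusted p = 0.262). With median centring it was −0.04 (adjusted p = 0.845), and the groups overlapped, and sum-scaled it was −0.51 (adjusted p = 0.0619). An exact two-sided permutation test gave p = 0.333, the smallest that 2 libraries against 2 allow. A fall of the targeted RNA was therefore not shown at this threshold in these whole-liver libraries, and the hairpin's effect in stellate cells alone was not measured.

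Of 9 tested thrombospondins and thrombospondin receptors 0 rose and 4 fell (1 and 3 centred, 0 and 6 sum-scaled, 0 and 2 without shThbs2 replicate 3), with a median of −0.75 (−0.48 without NC replicate 3). The receptor gene Scarb1 was counted in this list, and binding of thrombospondins by its product was not measured. Scarb1 measured 18.3 and 18.7 FPKM in the shThbs2 livers, against 47.5 and 54.1 FPKM in the NC livers (log2 change −1.41, SE 0.15, adjusted p = 0.00461). Cd47, which encodes the receptor that the carboxyl end of thrombospondins binds, measured 32.3 and 43.5 FPKM in the shThbs2 livers, against 66.5 and 64.8 FPKM in the NC livers (−0.79, adjusted p = 0.0255). The integrin gene Itgb3 measured 0.5 and 0.54 FPKM in the shThbs2 livers, against 1.99 and 1.57 FPKM in the NC livers (−0.87, adjusted p = 0.0189). Thbs1, the gene of thrombospondin-1, an activator of latent TGF-β, measured 2.13 and 7.6 FPKM in the shThbs2 livers, against 14.4 and 18.9 FPKM in the NC livers, so that shThbs2 replicate 3 lay well below replicate 4 (−1.75, adjusted p = 0.032). With median centring Thbs1 did not pass (−1.52, adjusted p = 0.0511). Of the 3 genes of this list named as passing in both fits, 2 kept the call without shThbs2 replicate 3, 3 without shThbs2 replicate 4, 0 without NC replicate 3 and 0 without NC replicate 4.

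The 2 groups differed in what made up their FPKM sums. The FPKM sums were 1239160 and 1208190 in the shThbs2 livers, against 922124 and 907758 in the NC livers. The 15 genes of the mitochondrial genome held 23.3% and 24.9% of that sum in the shThbs2 livers and 12.5% and 12.4% in the NC livers. A further 7 annotated nuclear copies of mitochondrial genes, which lie side by side on chromosome 1 and share at least 97.2% of their 31-base words with the mitochondrial genome's transcripts, held 16.1% and 16.4% in the shThbs2 livers and 9.43% and 8.50% in the NC livers. Reads of the copies and of the mitochondrial genes cannot be told apart. The sum over all other genes was 750293 and 709322 in the shThbs2 livers and 719945 and 718457 in the NC livers, and these ranges overlapped. The rise in the deposited sum thus lay in the mitochondrial genes and their copies. A large part of the mitochondrial sum in each library was that of mt-Atp8, whose short length raises its FPKM. The shares are therefore of FPKM and not of RNA mass. Libraries of the same group correlated more closely (Pearson's r = 0.977 within shThbs2 and 0.982 within NC, across genes, which are not independent replicates) than libraries of different groups (0.896 to 0.927).

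**Figure D1:**
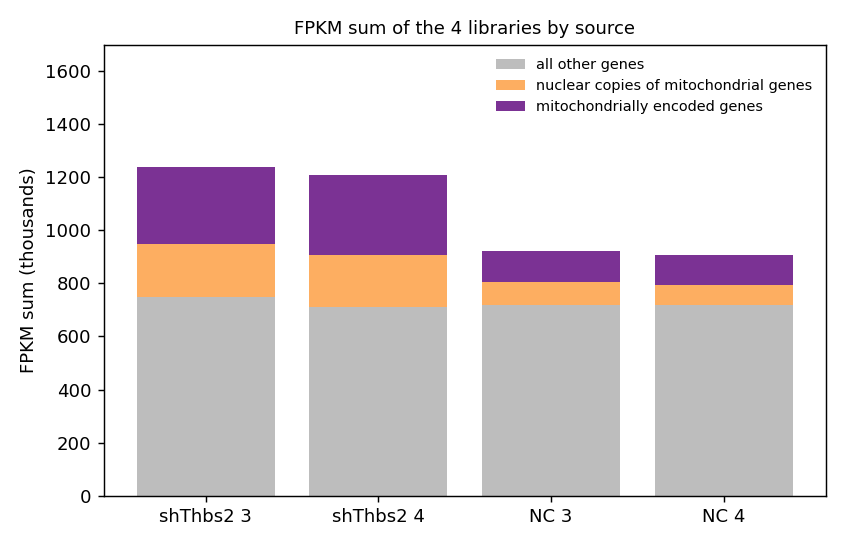
Sum of FPKM in each of the 4 libraries (vertical axis), stacked by mitochondrially encoded genes, their 7 nuclear copies and all other genes. The 2 shThbs2 libraries reach 1239160 and 1208190, above the 2 NC libraries at 922124 and 907758, while the grey part for all other genes lies between 709322 and 750293 in all 4.

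Many liver genes differed between the groups. As deposited, 1671 of 12319 features rose (13.6%) and 3056 fell (24.8%), 38.4% in all. The median log2 change of all tested features was −0.17, so a gene at the centre of the distribution was itself lower in the shThbs2 livers. With median centring, which puts that median at 0.07, 2616 rose (21.2%) and 1827 fell (14.8%). Of the features that fell as deposited, 1229 did not pass with centring, and 2 of those that rose did not. Passed in both fits were 1669 that rose (13.5%) and 1827 that fell (14.8%), of which 759 and 993 changed at least 2-fold. The groups did not overlap for 75.1% of features, 28% higher and 47.1% lower in the shThbs2 livers. The direction of an average gene thus depended on the scaling. Among the called features 35.4% were higher as deposited, 58.9% with median centring and 12.5% when each library was rescaled to the same FPKM sum.

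These counts rested on all 4 libraries. Without shThbs2 replicate 3 limma called 1045 higher and 1463 lower, and without shThbs2 replicate 4 it called 1542 and 3173. Without NC replicate 3 it called 58 and 84, and without NC replicate 4 it called 18 and 43. Without the filter on low values it called 0, although 2747 higher and 4938 lower features had an unadjusted p under 0.05.

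**Figure D2:**
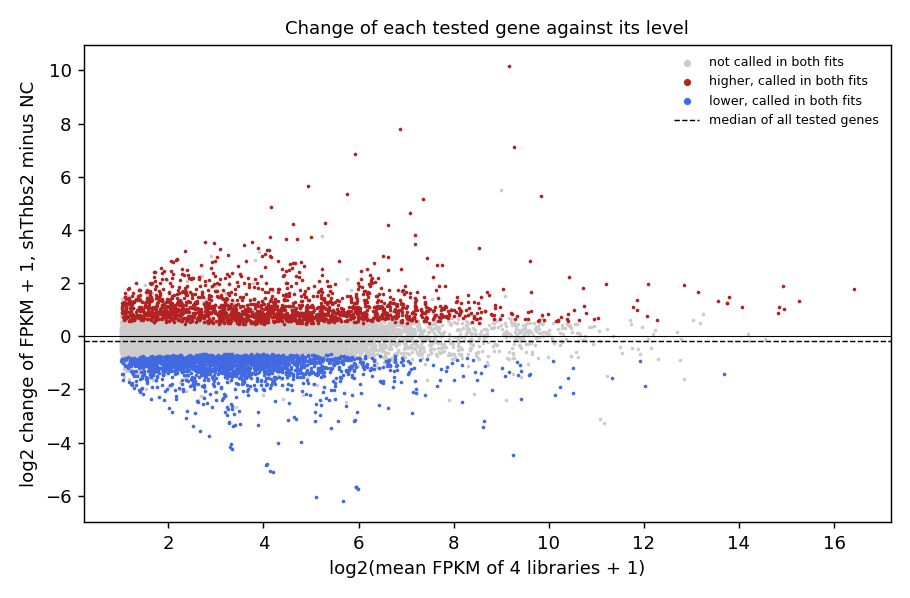
Log2 change of FPKM + 1 (vertical axis, shThbs2 minus NC) of each of the 12319 tested features against log2 of its mean FPKM + 1 over 4 libraries (horizontal axis). Red and blue points are the 1669 higher and 1827 lower features that passed both as deposited and with median centring, and the dashed line is the median of −0.17.

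Among matrix genes the collagens fell less often than all features as deposited and centred, and more often sum-scaled. Matrix glycoproteins and proteoglycans fell more often as deposited, and near the share of all features centred and sum-scaled. The fibrillar chains Col1a1 and Col3a1 did not pass as deposited or centred. Of 14 collagen genes 0 rose and 2 fell (0 and 1 centred, 0 and 10 sum-scaled), with a median of −0.46 (−0.30 without NC replicate 4). The 2 that fell as deposited are chains of the basement membrane collagen IV. Col4a2 measured 3.62 and 5.03 FPKM in the shThbs2 livers, against 8.07 and 9.49 FPKM in the NC livers (log2 change −0.89, SE 0.19, adjusted p = 0.0185), and Col4a1 passed as deposited only (−0.82, adjusted p = 0.0387, and 0.0764 with centring). Col1a1, a chain of type I collagen, measured 4.4 and 5.45 FPKM in the shThbs2 livers, against 7.39 and 14.3 FPKM in the NC livers and did not pass (−0.94, adjusted p = 0.0528). The NC libraries differed from each other by more than NC replicate 3 differed from the shThbs2 livers. Col3a1, of type III collagen, had values of 18.6 and 21.8 FPKM in the shThbs2 livers, against 24.6 and 40.8 FPKM in the NC livers (−0.63, adjusted p = 0.101). Sum-scaled, both passed (Col1a1 −1.30, adjusted p = 0.0141, and Col3a1 −1.03, adjusted p = 0.0192), and Col1a1 also passed with a pseudocount of 0.1 and among protein-coding genes only. Of 16 matrix glycoproteins and proteoglycans 1 rose and 6 fell (2 and 3 centred, 0 and 8 sum-scaled, 1 and 2 without shThbs2 replicate 3), with a median of −0.39 (−0.59 without NC replicate 3, −0.23 without NC replicate 4). Nid1, which encodes the basement membrane linker nidogen-1, measured 3.47 and 5.34 FPKM in the shThbs2 livers, against 48.3 and 41.1 FPKM in the NC livers (log2 change −3.10, SE 0.21, adjusted p = 0.0021). Fn1, fibronectin, measured 130 and 111 FPKM in the shThbs2 livers, against 248 and 261 FPKM in the NC livers (−1.08, adjusted p = 0.00903). Tnc, the injury-induced glycoprotein tenascin C, measured 0.64 and 0.84 FPKM in the shThbs2 livers, against 2.67 and 4.07 FPKM in the NC livers (−1.31, adjusted p = 0.0102).

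Of 14 genes that modify collagen 1 rose and 4 fell (1 and 3 centred, 0 and 9 sum-scaled), with a median of −0.37, and as deposited these shares were near those of all features. Tgm2, a crosslinking transglutaminase, measured 29.3 and 30.4 FPKM in the shThbs2 livers, against 62.6 and 86.3 FPKM in the NC livers (−1.27, adjusted p = 0.00903). Plod3, a lysyl hydroxylase, measured 11.5 and 11.4 FPKM in the shThbs2 livers, against 21.2 and 24.8 FPKM in the NC livers (−0.94, adjusted p = 0.00986). Loxl2, a lysyl oxidase, measured 1.3 and 1.66 FPKM in the shThbs2 livers, against 2.98 and 4.13 FPKM in the NC livers (−0.87, adjusted p = 0.0221). The member that rose was Ppib, cyclophilin B of the endoplasmic reticulum, at 780 and 749 FPKM in the shThbs2 livers, against 414 and 431 FPKM in the NC livers (0.86, adjusted p = 0.0131). Of the 8 genes of matrix and collagen processing named as passing in both fits, 5 kept the call without shThbs2 replicate 3, 8 without shThbs2 replicate 4, 0 without NC replicate 3 and 0 without NC replicate 4.

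Most contractile genes and several adhesion genes fell. Of 17 contractile myofibroblast genes 0 rose and 12 fell (0 and 9 centred, 0 and 13 sum-scaled), with a median of −0.81, against −0.17 over all tested features. Acta2 (chromosome 19, 34241090 to 34255590, minus strand) measured 8.34 and 8.43 FPKM in the shThbs2 livers, against 14.4 and 17.1 FPKM in the NC livers (log2 change −0.83, SE 0.16, adjusted p = 0.0132). The largest fall of the actins was that of Actg1, cytoplasmic gamma actin, at 126 and 239 FPKM in the shThbs2 livers, against 773 and 653 FPKM in the NC livers (−2.03, adjusted p = 0.00918). Both actins were lower in each shThbs2 liver than in either NC liver. Actb, cytoplasmic beta actin, often used for normalisation, measured 429 and 434 FPKM in the shThbs2 livers, against 902 and 806 FPKM in the NC livers (−0.98, adjusted p = 0.0105). Myh9, a nonmuscle myosin heavy chain, measured 11.6 and 13.2 FPKM in the shThbs2 livers, against 30.6 and 39.1 FPKM in the NC livers (−1.41, adjusted p = 0.00593). Actn1, an actin crosslinker, measured 7.52 and 8.65 FPKM in the shThbs2 livers, against 21.7 and 22.7 FPKM in the NC livers (−1.36, adjusted p = 0.00471). Cytoplasmic actins and nonmuscle myosin are made by most liver cells, so the list does not mark myofibroblasts alone. Of 17 integrin and focal adhesion genes 0 rose and 8 fell (0 and 5 centred, 0 and 13 sum-scaled, 0 and 3 without shThbs2 replicate 3), with a median of −0.49. Vcl, vinculin, which couples integrins to actin, measured 1.14 and 1.68 FPKM in the shThbs2 livers, against 14 and 20.8 FPKM in the NC livers (log2 change −2.92, SE 0.23, adjusted p = 0.00306). Itgb1, the beta 1 integrin, measured 30.6 and 42.4 FPKM in the shThbs2 livers, against 94.5 and 103 FPKM in the NC livers (−1.43, adjusted p = 0.00721). Itga5, the fibronectin receptor chain, measured 5.19 and 5.6 FPKM in the shThbs2 livers, against 11.5 and 12.8 FPKM in the NC livers (−1.04, adjusted p = 0.00738). Of the 8 contractile and adhesion genes named as passing in both fits, 7 kept the call without shThbs2 replicate 3, 8 without shThbs2 replicate 4, 1 without NC replicate 3 and 0 without NC replicate 4.

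The promoters of Vcl and Actg1 are shown because both carry a CArG box, the element that serum response factor binds in cytoskeletal genes. The 250 bases before the RefSeq start site (GRCm38.p6) are given 5′ to 3′ on the gene's strand, with the box in capitals, and genes and motif were chosen after their values were seen. The Vcl window is chr14:20929148-20929397, plus strand, and its box starts 227 bases before the start site. The Actg1 window is chr11:120348496-120348745, minus strand, and its box starts 90 bases before the start site.
Vcl: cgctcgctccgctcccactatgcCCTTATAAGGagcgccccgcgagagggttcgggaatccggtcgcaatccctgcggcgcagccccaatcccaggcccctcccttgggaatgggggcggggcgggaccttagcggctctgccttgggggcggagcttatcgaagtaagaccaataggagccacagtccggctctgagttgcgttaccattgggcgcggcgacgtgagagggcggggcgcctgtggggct
Actg1: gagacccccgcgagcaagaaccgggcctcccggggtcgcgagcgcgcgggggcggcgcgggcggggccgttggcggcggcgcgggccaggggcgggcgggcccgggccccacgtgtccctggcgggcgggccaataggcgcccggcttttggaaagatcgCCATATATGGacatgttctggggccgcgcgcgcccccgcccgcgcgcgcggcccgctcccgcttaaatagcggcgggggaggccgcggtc
On either strand, a CArG box lay in 1.63% of all 32851 windows of 300 bases (250 before to 50 after a start site), in 1.56% of tested genes, in 2.08% of the genes that fell in both fits and in 1.72% of those that rose in both. Here and for the motifs below, gene shares are over genes with a window, 9365 tested, 1391 that fell and 1222 that rose. A gene was counted if any of its windows matched, while the share of all windows is per window. A match is a description of the letters and not a shown binding site.

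Several matrix proteases fell, and an inhibitor of them fell too. Of 12 metalloproteinases and inhibitors 0 rose and 6 fell (0 and 5 centred, 0 and 8 sum-scaled), with a median of −0.59. Mmp12, macrophage elastase, measured 7.34 and 25 FPKM in the shThbs2 livers, against 90.6 and 122 FPKM in the NC livers (log2 change −2.85, SE 0.52, adjusted p = 0.0124), so that the shThbs2 libraries differed from each other more than the NC libraries did. Mmp13, the main interstitial collagenase of mice, measured 0.49 and 1.48 FPKM in the shThbs2 livers, against 8.93 and 11.5 FPKM in the NC livers (−2.54, adjusted p = 0.00463). Mmp14, a membrane-bound collagenase, measured 8.5 and 16.7 FPKM in the shThbs2 livers, against 41.9 and 43.3 FPKM in the NC livers (−1.75, adjusted p = 0.0109). Adamts1, a secreted proteoglycan-cleaving protease, measured 4.24 and 7.31 FPKM in the shThbs2 livers, against 18.1 and 27.6 FPKM in the NC livers (−1.83, adjusted p = 0.00964). The collagenases and their tissue inhibitor were thus lower in the same livers. Timp1 measured 2.5 and 5.07 FPKM in the shThbs2 livers, against 10.9 and 14.2 FPKM in the NC livers (−1.55, adjusted p = 0.0132). Sprr1a, a small proline-rich protein of keratinocytes and regenerating nerve that is also induced in stressed tissue, measured 48.4 and 53.8 FPKM in the shThbs2 livers, against 980 and 1328 FPKM in the NC livers (log2 change −4.46, SE 0.21, adjusted p = 0.000907). Its neighbour Sprr1b is listed at 0 in both shThbs2 livers, against 26.8 and 42.8 FPKM in the NC livers. Of the 7 protease, inhibitor and Sprr genes named as passing in both fits, 6 kept the call without shThbs2 replicate 3, 7 without shThbs2 replicate 4, 2 without NC replicate 3 and 2 without NC replicate 4.

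The promoters of Mmp13 and Sprr1a are shown for the AP-1 element TGANTCA, the site of Jun and Fos factors, whose genes are described further on. Its letters are in capitals in the 250 bases before the start site. The Mmp13 window is chr9:7272264-7272513, plus strand, with the element 35 bases before the start site, and the Sprr1a window is chr3:92485882-92486131, minus strand, with elements 146 and 116 bases before it.
Mmp13: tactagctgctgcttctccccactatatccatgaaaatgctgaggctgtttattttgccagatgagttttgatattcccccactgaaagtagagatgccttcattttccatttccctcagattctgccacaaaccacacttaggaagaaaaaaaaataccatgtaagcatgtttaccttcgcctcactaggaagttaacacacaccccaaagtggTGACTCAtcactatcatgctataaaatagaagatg
Sprr1a: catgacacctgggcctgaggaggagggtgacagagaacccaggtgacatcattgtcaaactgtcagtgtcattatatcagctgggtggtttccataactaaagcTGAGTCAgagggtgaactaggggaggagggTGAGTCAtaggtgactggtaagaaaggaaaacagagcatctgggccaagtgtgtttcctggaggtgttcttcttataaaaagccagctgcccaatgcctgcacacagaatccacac
The element lay on either strand in 7.81% of all 32851 windows, in 6.51% of tested genes, in 7.55% of genes that fell in both fits and in 7.45% of those that rose in both. These genes were also chosen after their values were seen.

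TGF-β and Hippo pathway genes fell or did not pass. TGF-β is the main cytokine that drives stellate cells to make matrix, and the Hippo kinases restrain the transcriptional coactivators YAP and TAZ. Of 21 TGF-β and activin genes 0 rose and 10 fell (0 and 7 centred, 0 and 13 sum-scaled), with a median of −0.47 (−0.26 without shThbs2 replicate 3, −0.98 without shThbs2 replicate 4). The ligand Tgfb1 measured 4.27 and 4.92 FPKM in the shThbs2 livers, against 11.6 and 10 FPKM in the NC livers (log2 change −1.08, SE 0.16, adjusted p = 0.00781). Its receptor chain Tgfbr2 measured 4.24 and 4.2 FPKM in the shThbs2 livers, against 9.76 and 10.6 FPKM in the NC livers (−1.10, adjusted p = 0.00611). Both were lower in each shThbs2 liver than in either NC liver. Inhba, the activin A subunit, measured 3.04 and 2.16 FPKM in the shThbs2 livers, against 7.9 and 10.6 FPKM in the NC livers (−1.51, adjusted p = 0.00685). Fst, which binds and blocks activin, measured 2.46 and 3.36 FPKM in the shThbs2 livers, against 11.1 and 9.3 FPKM in the NC livers (−1.52, adjusted p = 0.0054). Ligand and antagonist were lower in the same livers. Of 15 Hippo pathway genes and targets 0 rose and 8 fell (0 and 5 centred, 0 and 12 sum-scaled, 0 and 3 without shThbs2 replicate 3), with a median of −0.55. The kinase gene Lats1 measured 0.64 and 0.51 FPKM in the shThbs2 livers, against 4.45 and 6.17 FPKM in the NC livers (−1.99, adjusted p = 0.00411). The YAP target Ccn1, a matricellular protein, measured 7.01 and 10.3 FPKM in the shThbs2 livers, against 26.8 and 28.3 FPKM in the NC livers (−1.59, adjusted p = 0.00589). Ajuba, a scaffold that restrains the LATS kinases, measured 5.52 and 7.73 FPKM in the shThbs2 livers, against 14.8 and 12.7 FPKM in the NC livers (−0.96, adjusted p = 0.0163). Of the 7 TGF-β, activin and Hippo genes named as passing in both fits, 6 kept the call without shThbs2 replicate 3, 7 without shThbs2 replicate 4, 1 without NC replicate 3 and 0 without NC replicate 4.

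Several markers of recruited macrophages fell, while Kupffer cell genes were called in both directions. Of 17 monocyte, neutrophil and scar macrophage genes 0 rose and 9 fell (0 and 9 centred, 0 and 13 sum-scaled), with a median of −1.07. Chil3, a secreted lectin of monocyte-derived cells, measured 1.46 and 3.94 FPKM in the shThbs2 livers, against 29.1 and 20.4 FPKM in the NC livers (log2 change −2.86, SE 0.36, adjusted p = 0.00568). Ly6c2, which marks inflammatory monocytes, measured 0.92 and 2.07 FPKM in the shThbs2 livers, against 8.86 and 6.64 FPKM in the NC livers (−1.84, adjusted p = 0.00782). Itgam, the CD11b integrin of myeloid cells, measured 1.22 and 1.48 FPKM in the shThbs2 livers, against 7.23 and 5.58 FPKM in the NC livers (−1.65, adjusted p = 0.00471). In each of these the groups were well apart. Ccr2, the chemokine receptor that draws monocytes out of the marrow, measured 2.49 and 2.87 FPKM in the shThbs2 livers, against 7.82 and 6.41 FPKM in the NC livers (−1.14, adjusted p = 0.00782). Cd68, a macrophage lysosomal protein, measured 18 and 22.1 FPKM in the shThbs2 livers, against 64.2 and 68.7 FPKM in the NC livers (−1.69, adjusted p = 0.00411). The neutrophil gene S100a8, at 32.7 and 49.4 FPKM in the shThbs2 livers, against 33.8 and 60.1 FPKM in the NC livers (−0.16, adjusted p = 0.71), overlapped between the groups. Its partner S100a9 did so too, at 48.7 and 63 FPKM in the shThbs2 livers, against 51 and 73.8 FPKM in the NC livers (−0.15, adjusted p = 0.648). Of 14 Kupffer cell genes 1 rose and 4 fell (4 and 2 centred, 1 and 6 sum-scaled, 0 and 2 without shThbs2 replicate 3), with a median of −0.01 (0.23 centred, 0.36 without NC replicate 3, −0.26 without NC replicate 4). The member that rose as deposited was Clec4f, a lectin of resident Kupffer cells, at 102 and 96.3 FPKM in the shThbs2 livers, against 54.2 and 36.7 FPKM in the NC livers (1.14, adjusted p = 0.0143). The other defining Kupffer genes Cd5l (−0.29, adjusted p = 0.446), Vsig4 (0.66, adjusted p = 0.0909) and Timd4 (0.34, adjusted p = 0.428) did not pass as deposited. With centring Vsig4 was higher and passed (0.90, adjusted p = 0.0488), and Cd5l and Timd4 did not pass.

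Many chemokine and NF-kB genes fell. Of 20 chemokines and receptors 1 rose and 11 fell (1 and 7 centred, 0 and 14 sum-scaled, 1 and 7 without shThbs2 replicate 3, 1 and 7 without shThbs2 replicate 4), with a median of −0.61. Ccl2, the main ligand of Ccr2, measured 7.08 and 7.72 FPKM in the shThbs2 livers, against 29.9 and 27.1 FPKM in the NC livers (−1.81, adjusted p = 0.00323). Ccl7, another ligand, measured 1.34 and 2.52 FPKM in the shThbs2 livers, against 19.4 and 12.6 FPKM in the NC livers (−2.54, adjusted p = 0.00474). Cxcl2, a neutrophil attractant, measured 0.55 and 1.15 FPKM in the shThbs2 livers, against 23.7 and 13 FPKM in the NC livers (log2 change −3.35, SE 0.31, adjusted p = 0.00354). Cxcl14, made by stromal and epithelial cells, measured 1.49 and 1.97 FPKM in the shThbs2 livers, against 7.11 and 9.91 FPKM in the NC livers (−1.79, adjusted p = 0.00499). The ligand and the receptor of monocyte recruitment were thus lower in the same livers. Of 19 NF-kB and TLR signalling genes 1 rose and 9 fell (2 and 6 centred, 0 and 14 sum-scaled), with a median of −0.59. Tnfaip3, a feedback inhibitor of NF-kB, measured 1.01 and 1.74 FPKM in the shThbs2 livers, against 7.43 and 9.22 FPKM in the NC livers (−1.98, adjusted p = 0.00443). Nfkb2 measured 3.79 and 3.93 FPKM in the shThbs2 livers, against 11.5 and 14.1 FPKM in the NC livers (−1.50, adjusted p = 0.00443). Relb, its partner in the noncanonical pathway, measured 2.59 and 2.38 FPKM in the shThbs2 livers, against 6.63 and 5.73 FPKM in the NC livers (−1.04, adjusted p = 0.00827). Of 28 interferon response genes 1 rose and 10 fell (2 and 6 centred, 0 and 16 sum-scaled, 0 and 6 without shThbs2 replicate 3), with a median of −0.34. Among those that fell was Ifit3, at 4.31 and 4.34 FPKM in the shThbs2 livers, against 10.3 and 10.2 FPKM in the NC livers (−1.07, adjusted p = 0.00607). Of the 14 macrophage, chemokine, NF-kB and interferon genes named as passing in both fits, 13 kept the call without shThbs2 replicate 3, 14 without shThbs2 replicate 4, 1 without NC replicate 3 and 1 without NC replicate 4.

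Many acute phase and immediate early genes fell. Of 24 acute phase genes 1 rose and 13 fell (1 and 11 centred, 1 and 17 sum-scaled), with a median of −0.83. Saa1, serum amyloid A1, measured 78.6 and 76.9 FPKM in the shThbs2 livers, against 739 and 684 FPKM in the NC livers (log2 change −3.18, SE 0.16, adjusted p = 0.00103). Its close paralog Saa2, with which reads may be shared, measured 32.5 and 31.1 FPKM in the shThbs2 livers, against 290 and 200 FPKM in the NC livers (−2.88, adjusted p = 0.0028). Fga, a fibrinogen chain, measured 429 and 359 FPKM in the shThbs2 livers, against 1533 and 2182 FPKM in the NC livers (−2.22, adjusted p = 0.00425). Stat3, the factor through which interleukin 6 induces these genes, measured 15.5 and 16.8 FPKM in the shThbs2 livers, against 41 and 43.6 FPKM in the NC livers (−1.34, adjusted p = 0.00475). The exception was Hamp, the gene of the iron hormone hepcidin, at 8985 and 14558 FPKM in the shThbs2 livers, against 3636 and 2421 FPKM in the NC livers (1.95, adjusted p = 0.00966). Hamp2, its paralog, measured 294 and 237 FPKM in the shThbs2 livers, against 35.7 and 8.53 FPKM in the NC livers (3.82, adjusted p = 0.00903). Hjv, which encodes the hepcidin inducer hemojuvelin, measured 52.2 and 28.9 FPKM in the shThbs2 livers, against 1.55 and 2.82 FPKM in the NC livers (3.68, adjusted p = 0.00339). These 3 genes of the hepcidin axis were higher in both shThbs2 livers than in either NC liver. Of 23 complement genes 1 rose and 8 fell (2 and 3 centred, 0 and 13 sum-scaled, 3 and 5 without shThbs2 replicate 4), with a median of −0.44 (−0.17 without shThbs2 replicate 4, −0.25 without NC replicate 4). C9, a pore-forming component, measured 114 and 83.6 FPKM in the shThbs2 livers, against 235 and 400 FPKM in the NC livers (−1.64, adjusted p = 0.0125). Of 19 immediate early genes 1 rose and 9 fell (1 and 9 centred, 0 and 14 sum-scaled, 1 and 16 without shThbs2 replicate 4), with a median of −0.81 (−0.45 without shThbs2 replicate 3). Ier3, which limits cell death, measured 5.44 and 8.98 FPKM in the shThbs2 livers, against 45.5 and 71.8 FPKM in the NC livers (−2.86, adjusted p = 0.0044). Maff, a small Maf factor, measured 5.92 and 6.41 FPKM in the shThbs2 livers, against 21.7 and 20.1 FPKM in the NC livers (−1.61, adjusted p = 0.0034). Jun, a subunit of AP-1, measured 14.6 and 15.3 FPKM in the shThbs2 livers, against 35.8 and 47.9 FPKM in the NC livers (−1.41, adjusted p = 0.00632). Of the 11 acute phase, hepcidin and immediate early genes named as passing in both fits, 9 kept the call without shThbs2 replicate 3, 10 without shThbs2 replicate 4, 3 without NC replicate 3 and 2 without NC replicate 4.

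Most cytosolic heat shock genes fell as deposited, and glutathione and Nrf2 genes were called in both directions. Unfolded protein and integrated stress response genes fell less often than all features as deposited and centred, and near the share of all features sum-scaled. Nrf2 is the factor that raises glutathione and antioxidant enzymes under oxidative stress. Of 22 glutathione and Nrf2 genes 4 rose and 9 fell (5 and 5 centred, 3 and 11 sum-scaled), with a median of −0.13 (0.11 centred, −0.28 without shThbs2 replicate 3, −0.20 without NC replicate 4). Gclc, the rate-limiting enzyme of glutathione synthesis, measured 78.5 and 57 FPKM in the shThbs2 livers, against 740 and 695 FPKM in the NC livers (log2 change −3.40, SE 0.20, adjusted p = 0.00163). Txnrd1, thioredoxin reductase, measured 46.2 and 60.1 FPKM in the shThbs2 livers, against 224 and 236 FPKM in the NC livers (−2.10, adjusted p = 0.00339). G6pdx, which makes NADPH, measured 2.18 and 2.33 FPKM in the shThbs2 livers, against 12.4 and 15.1 FPKM in the NC livers (−2.18, adjusted p = 0.00269). In contrast the glutathione transferase gene Gstm2, one of a family of close paralogs, measured 174 and 148 FPKM in the shThbs2 livers, against 20.3 and 17.8 FPKM in the NC livers (3.02, adjusted p = 0.00138). Of 14 cytosolic heat shock genes 1 rose and 10 fell (2 and 4 centred, 0 and 12 sum-scaled, 0 and 2 without shThbs2 replicate 3), with a median of −0.79. Hspa1b, an inducible HSP70, measured 14.5 and 14.6 FPKM in the shThbs2 livers, against 29.7 and 41.2 FPKM in the NC livers (−1.21, adjusted p = 0.00964). Its cochaperone gene Bag3 measured 23 and 25.3 FPKM in the shThbs2 livers, against 46 and 47.8 FPKM in the NC livers (−0.93, adjusted p = 0.00964). Hspa1b has a near-identical neighbour, Hspa1a, so its reads may be split between them. Of 24 unfolded protein and integrated stress response genes 2 rose and 4 fell (5 and 2 centred, 1 and 11 sum-scaled), with a median of −0.04 (0.20 centred, 0.15 without shThbs2 replicate 3, −0.27 without shThbs2 replicate 4, −0.16 without NC replicate 3, 0.02 without NC replicate 4). Among those that fell, Chac1, which degrades glutathione, measured 1.32 and 2.27 FPKM in the shThbs2 livers, against 13.7 and 19.1 FPKM in the NC livers (−2.64, adjusted p = 0.00347). Trib3, a pseudokinase of the same list, rose, at 84.1 and 164 FPKM in the shThbs2 livers, against 27.8 and 28.3 FPKM in the NC livers (2.03, adjusted p = 0.00903). Mt1, metallothionein 1, measured 396 and 716 FPKM in the shThbs2 livers, against 2841 and 1888 FPKM in the NC livers (−2.12, adjusted p = 0.00968). Of the 9 stress genes named as passing in both fits, 8 kept the call without shThbs2 replicate 3, 9 without shThbs2 replicate 4, 3 without NC replicate 3 and 0 without NC replicate 4.

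Most measured genes of amino acid breakdown rose. Hepatocytes degrade surplus amino acids and pass the nitrogen to the urea cycle. Of 26 genes of amino acid breakdown 15 rose and 1 fell (18 and 0 centred, 11 and 2 sum-scaled), with a median of 0.85. Bhmt (chromosome 13, 93616675 to 93637961, minus strand), which remethylates homocysteine with betaine, measured 1894 and 1636 FPKM in the shThbs2 livers, against 93 and 21 FPKM in the NC livers (log2 change 5.28, SE 0.64, adjusted p = 0.0054). Its neighbour Bhmt2 measured 63.2 and 51.3 FPKM in the shThbs2 livers, against 12.8 and 12.4 FPKM in the NC livers (2.09, adjusted p = 0.00307). The NC livers differed several-fold from each other for Bhmt and little for Bhmt2. Cth, which makes cysteine from cystathionine, measured 320 and 369 FPKM in the shThbs2 livers, against 48.1 and 57.8 FPKM in the NC livers (2.68, adjusted p = 0.00199). Kynu, of tryptophan breakdown, measured 64.2 and 48.5 FPKM in the shThbs2 livers, against 14.4 and 16.4 FPKM in the NC livers (1.80, adjusted p = 0.00443). Of 13 urea cycle and ammonia genes 6 rose and 1 fell (6 and 1 centred, 4 and 3 sum-scaled), with a median of 0.47 (0.26 without shThbs2 replicate 3). Asl, argininosuccinate lyase, measured 335 and 272 FPKM in the shThbs2 livers, against 100 and 78.7 FPKM in the NC livers (1.75, adjusted p = 0.00504). Ass1, argininosuccinate synthase, measured 985 and 985 FPKM in the shThbs2 livers, against 544 and 515 FPKM in the NC livers (0.89, adjusted p = 0.0121). Car5a, which supplies bicarbonate to the cycle, measured 24.9 and 11.8 FPKM in the shThbs2 livers, against 2.84 and 2.66 FPKM in the NC livers (2.28, adjusted p = 0.00754). The member that fell was Glud1, glutamate dehydrogenase, at 214 and 207 FPKM in the shThbs2 livers, against 530 and 566 FPKM in the NC livers (−1.38, adjusted p = 0.00499). Of the 8 amino acid and urea cycle genes named as passing in both fits, 8 kept the call without shThbs2 replicate 3, 8 without shThbs2 replicate 4, 2 without NC replicate 3 and 1 without NC replicate 4.

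Most bile acid synthesis and transport genes rose as well. Of 23 such genes 15 rose and 1 fell (15 and 0 centred, 10 and 2 sum-scaled), with a median of 1.00. Cyp7a1, the rate-limiting enzyme of bile acid synthesis, measured 12.3 and 10.6 FPKM in the shThbs2 livers, against 0.09 and 0.06 FPKM in the NC livers (log2 change 3.54, SE 0.16, adjusted p = 0.000907). Baat, which joins bile acids to taurine and glycine, measured 122 and 98.9 FPKM in the shThbs2 livers, against 15.7 and 23.7 FPKM in the NC livers (2.45, adjusted p = 0.00395). Slco1b2, an uptake carrier of the sinusoidal membrane, measured 147 and 130 FPKM in the shThbs2 livers, against 30.8 and 27.8 FPKM in the NC livers (2.20, adjusted p = 0.00268). Abcc4, an export pump of the same membrane, measured 32.7 and 47.6 FPKM in the shThbs2 livers, against 4.91 and 5.35 FPKM in the NC livers (2.73, adjusted p = 0.00289). Synthesis, conjugation, uptake and export were thus all represented. Of 28 genes of xenobiotic metabolism 10 rose and 4 fell (10 and 3 centred, 3 and 10 sum-scaled, 4 and 7 without shThbs2 replicate 3), with a median of 0.08 (−0.33 sum-scaled, −0.05 without shThbs2 replicate 3, 0.33 without shThbs2 replicate 4). The nuclear receptor gene Nr1i3 (CAR) measured 47.5 and 38.6 FPKM in the shThbs2 livers, against 9.3 and 7.29 FPKM in the NC livers (2.25, adjusted p = 0.00339). Its target Cyp2b10 measured 129 and 121 FPKM in the shThbs2 livers, against 25.4 and 23.7 FPKM in the NC livers (2.30, adjusted p = 0.00199). Cyp3a13 measured 44.8 and 50.1 FPKM in the shThbs2 livers, against 105 and 118 FPKM in the NC livers (−1.21, adjusted p = 0.00659). Ugt2b5, one of several close paralogs, measured 336 and 237 FPKM in the shThbs2 livers, against 705 and 893 FPKM in the NC livers (−1.49, adjusted p = 0.00948). Of the 8 bile acid and xenobiotic genes named as passing in both fits, 8 kept the call without shThbs2 replicate 3, 8 without shThbs2 replicate 4, 2 without NC replicate 3 and 1 without NC replicate 4.

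Glucose genes were called in both directions. Of 21 genes of glycolysis and gluconeogenesis 7 rose and 7 fell (7 and 4 centred, 5 and 8 sum-scaled, 4 and 5 without shThbs2 replicate 3), with a median of 0.27 (−0.15 sum-scaled, 0.14 without shThbs2 replicate 3, 0.08 without NC replicate 3, 0.43 without NC replicate 4). G6pc (chromosome 11, 101367561 to 101377903, plus strand), glucose-6-phosphatase, which lets hepatocytes release glucose, measured 242 and 290 FPKM in the shThbs2 livers, against 20.2 and 26.2 FPKM in the NC livers (log2 change 3.47, SE 0.20, adjusted p = 0.00138). Its transporter partner Slc37a4 measured 70.9 and 56.9 FPKM in the shThbs2 livers, against 19.4 and 18.8 FPKM in the NC livers (1.68, adjusted p = 0.00416). Pfkfb1, the liver enzyme that sets fructose 2,6-bisphosphate, measured 21.3 and 17.8 FPKM in the shThbs2 livers, against 4.22 and 4.15 FPKM in the NC livers (1.98, adjusted p = 0.00306). Pkm, the pyruvate kinase of nonhepatic and proliferating cells, moved the other way at 13.5 and 17.5 FPKM in the shThbs2 livers, against 60.2 and 59.5 FPKM in the NC livers (−1.89, adjusted p = 0.00355). The named genes of glucose release were thus higher and the nonhepatic kinase lower in the same livers.

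The G6pc promoter is shown because its window holds the element of HNF1, a factor of hepatocyte identity, in the spelling GTTAATNATT, given in capitals. The window (chr11:101367466-101367715, plus strand, RefSeq, GRCm38.p6) holds the 250 bases before the RefSeq start site, and the element starts 221 bases before it. The gene start given above is from GENCODE and lies inside this window, so the annotations place the start differently.
G6pc: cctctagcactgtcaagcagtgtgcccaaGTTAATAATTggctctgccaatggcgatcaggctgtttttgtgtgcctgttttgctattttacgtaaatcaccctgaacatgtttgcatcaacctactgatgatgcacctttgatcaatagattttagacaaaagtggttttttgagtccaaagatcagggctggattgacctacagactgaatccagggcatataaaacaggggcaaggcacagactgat
On either strand the element lay in 0.399% of all 32851 windows, in 0.427% of tested genes, in 0.573% of genes that rose in both fits and in 0.0719% of those that fell in both. The last share is 1 of 1391 genes, and gene and motif were chosen after values were seen.

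Lipid genes were called in both directions too. Of 20 fatty acid synthesis genes 6 rose and 1 fell (6 and 1 centred, 5 and 2 sum-scaled, 10 and 1 without shThbs2 replicate 4), with a median of 0.34 (−0.07 sum-scaled, 0.07 without shThbs2 replicate 3, 0.77 without shThbs2 replicate 4, 0.51 without NC replicate 4). Acaca, acetyl-CoA carboxylase, measured 44.2 and 35.5 FPKM in the shThbs2 livers, against 13.7 and 12.4 FPKM in the NC livers (1.53, adjusted p = 0.00476). Thrsp, a lipogenic factor, measured 457 and 67 FPKM in the shThbs2 livers, against 4.86 and 7.51 FPKM in the NC livers (log2 change 4.64, SE 0.84, adjusted p = 0.0121), so that the shThbs2 libraries differed several-fold. The member that fell was Dgat2, which makes triglyceride, at 80.3 and 58.7 FPKM in the shThbs2 livers, against 152 and 147 FPKM in the NC livers (−1.11, adjusted p = 0.012). Of 16 lipid droplet and triglyceride genes 1 rose and 7 fell (2 and 4 centred, 0 and 9 sum-scaled, 0 and 4 without shThbs2 replicate 3), with a median of −0.46. The droplet coat gene Plin3 measured 8.31 and 10.5 FPKM in the shThbs2 livers, against 28.1 and 29.8 FPKM in the NC livers (−1.53, adjusted p = 0.00463). Of 24 cholesterol synthesis and uptake genes 4 rose and 3 fell (7 and 2 centred, 2 and 9 sum-scaled, 1 and 3 without shThbs2 replicate 3), with a median of 0.34 (−0.03 sum-scaled, 0.13 without shThbs2 replicate 3, 0.00 without NC replicate 3, 0.53 without NC replicate 4). Hmgcs1, an early enzyme of the pathway, measured 190 and 154 FPKM in the shThbs2 livers, against 40.6 and 63 FPKM in the NC livers (1.74, adjusted p = 0.00765). Of 25 fatty acid oxidation and PPARα genes 4 rose and 3 fell (5 and 2 centred, 3 and 10 sum-scaled, 2 and 3 without shThbs2 replicate 3), with a median of 0.08 (−0.34 sum-scaled, −0.05 without shThbs2 replicate 3, 0.43 without NC replicate 3, −0.25 without NC replicate 4). Of the 9 glucose and lipid genes named as passing in both fits, 9 kept the call without shThbs2 replicate 3, 9 without shThbs2 replicate 4, 1 without NC replicate 3 and 1 without NC replicate 4.

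Messenger RNAs of the mitochondrial genome rose as deposited. Of 15 mitochondrially encoded genes 13 rose and 0 fell (13 and 0 centred, 10 and 2 sum-scaled, 5 and 0 without shThbs2 replicate 3, 8 and 0 without shThbs2 replicate 4), with a median of 1.26. The 13 that rose are the protein-coding genes. The cytochrome oxidase gene mt-Co3 measured 2494 and 2011 FPKM in the shThbs2 livers, against 567 and 394 FPKM in the NC livers (log2 change 2.24, SE 0.24, adjusted p = 0.00443). The ATP synthase gene mt-Atp6 measured 7537 and 6280 FPKM in the shThbs2 livers, against 1646 and 1843 FPKM in the NC livers (1.98, adjusted p = 0.00381). Mt-Nd3, of complex I, measured 13601 and 13712 FPKM in the shThbs2 livers, against 4176 and 4402 FPKM in the NC livers (1.67, adjusted p = 0.00416). The gene with the greatest difference in FPKM was mt-Atp8, at 122490 and 148384 FPKM in the shThbs2 livers, against 35778 and 43409 FPKM in the NC livers (1.77, adjusted p = 0.0054). It overlaps mt-Atp6 and is very short, which raises its FPKM, and with quantile normalization it ranks first in every library and shows no change. The ribosomal RNA mt-Rnr1 did not pass, at 2930 and 2069 FPKM in the shThbs2 livers, against 3472 and 3030 FPKM in the NC livers (−0.40, adjusted p = 0.211). Nor did mt-Rnr2, at 2184 and 1389 FPKM in the shThbs2 livers, against 2254 and 2032 FPKM in the NC livers (−0.30, adjusted p = 0.385). Messenger and ribosomal RNAs of the same genome thus did not move alike in these poly(A)-selected libraries.

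Part of the nuclear genes of the mitochondrion rose, in numbers that depended on the scaling. Of 36 nuclear complex I genes 18 rose and 0 fell (28 and 0 centred, 6 and 0 sum-scaled, 7 and 0 without shThbs2 replicate 3), with a median of 0.71. Ndufs3 measured 74.8 and 61.4 FPKM in the shThbs2 livers, against 28.7 and 24.8 FPKM in the NC livers (1.31, adjusted p = 0.00659). Ndufa8 measured 244 and 181 FPKM in the shThbs2 livers, against 89 and 75.6 FPKM in the NC livers (1.35, adjusted p = 0.00882). Of 38 nuclear genes of complexes II to V 9 rose and 0 fell (11 and 0 centred, 4 and 4 sum-scaled, 4 and 0 without shThbs2 replicate 3, 14 and 0 without shThbs2 replicate 4), with a median of 0.30 (−0.12 sum-scaled, 0.17 without shThbs2 replicate 3, 0.45 without shThbs2 replicate 4). Sdhb of complex II measured 270 and 207 FPKM in the shThbs2 livers, against 99.9 and 95.8 FPKM in the NC livers (1.27, adjusted p = 0.00806). Atp5g1 of ATP synthase measured 582 and 444 FPKM in the shThbs2 livers, against 216 and 214 FPKM in the NC livers (1.24, adjusted p = 0.00899). Of 40 mitochondrial ribosomal protein genes 17 rose and 2 fell (25 and 2 centred, 4 and 3 sum-scaled, 10 and 2 without shThbs2 replicate 3), with a median of 0.47. Among those that rose, Mrps28 measured 58.4 and 52.8 FPKM in the shThbs2 livers, against 27.8 and 24.2 FPKM in the NC livers (1.07, adjusted p = 0.00831). Of 53 cytosolic ribosomal protein genes 11 rose and 2 fell (24 and 0 centred, 0 and 5 sum-scaled, 2 and 0 without shThbs2 replicate 3, 3 and 3 without shThbs2 replicate 4), with a median of 0.25 (−0.17 sum-scaled, 0.38 without shThbs2 replicate 3, 0.08 without shThbs2 replicate 4). Most of these genes are short, and the share of calls by length is given further on. Of the 9 mitochondrial genes named as passing in both fits, 8 kept the call without shThbs2 replicate 3, 8 without shThbs2 replicate 4, 0 without NC replicate 3 and 0 without NC replicate 4.

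**Figure D3:**
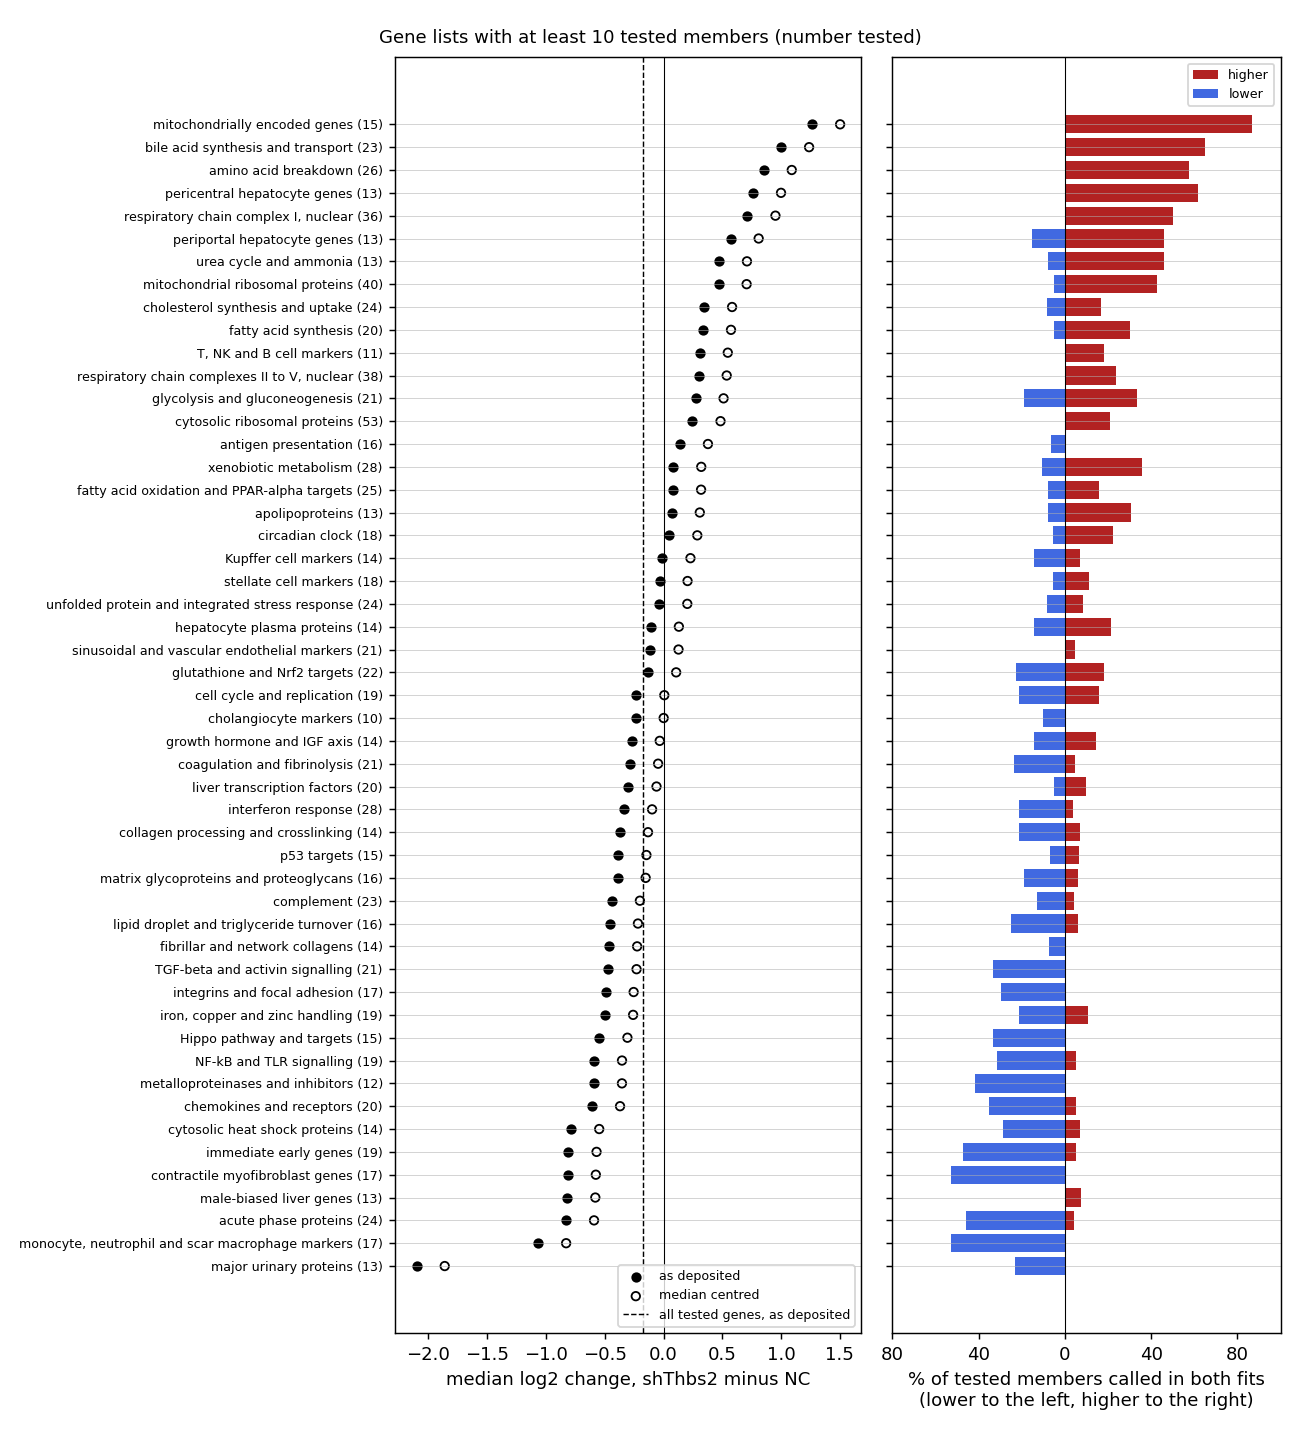
Left, median log2 change (shThbs2 minus NC) of each gene list with at least 10 tested members, as deposited (filled) and with median centring (open), with the median of all tested features dashed. Right, percent of tested members that passed in both fits, lower to the left in blue and higher to the right in red. Bile acid, amino acid and mitochondrial lists lie at the top and contractile, acute phase, monocyte and major urinary protein lists at the bottom.

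The genes with the greatest changes were checked against the rule for named genes, which 1210 higher and 1424 lower genes could have met. Among the 15 with the greatest rise was Upp2, uridine phosphorylase 2, at 143 and 66.4 FPKM in the shThbs2 livers, against 1.18 and 1.74 FPKM in the NC livers (log2 change 5.33, SE 0.36, adjusted p = 0.00206). Serpina6, the corticosteroid carrier, measured 249 and 122 FPKM in the shThbs2 livers, against 7.31 and 10.4 FPKM in the NC livers (4.17, adjusted p = 0.00339). Serpina7, the thyroxine carrier, measured 586 and 765 FPKM in the shThbs2 livers, against 75.2 and 58.7 FPKM in the NC livers (3.31, adjusted p = 0.00199). Plscr2, a phospholipid scramblase, measured 45.9 and 49.4 FPKM in the shThbs2 livers, against 2.97 and 2.7 FPKM in the NC livers (3.67, adjusted p = 0.000591). Akr1b7, an aldo-keto reductase, measured 17.9 and 30.4 FPKM in the shThbs2 livers, against 1.27 and 0.87 FPKM in the NC livers (3.56, adjusted p = 0.0028). Rgs16, a regulator of G protein signalling, measured 36.2 and 6.76 FPKM in the shThbs2 livers, against 0.5 and 0.62 FPKM in the NC livers (3.45, adjusted p = 0.015). Each of these lay higher in either shThbs2 liver than in both NC livers, which the rule required. Among the 15 with the greatest fall, Npy, neuropeptide Y, is listed at 0 and 0.94 FPKM in the shThbs2 livers, against 93.8 and 107 FPKM in the NC livers. Pgf (chromosome 12, 85166635 to 85177790, minus strand), placental growth factor, an angiogenic ligand, measured 0.14 and 0.16 FPKM in the shThbs2 livers, against 32.7 and 29.9 FPKM in the NC livers (log2 change −4.81, SE 0.15, adjusted p = 0.000332). Abhd2, a lipid hydrolase, measured 4.86 and 7.85 FPKM in the shThbs2 livers, against 77.5 and 76.8 FPKM in the NC livers (−3.44, adjusted p = 0.00199). Arhgap22, a Rac inhibitor, measured 0.88 and 0.87 FPKM in the shThbs2 livers, against 14.3 and 18.6 FPKM in the NC livers (−3.21, adjusted p = 0.00137). Slc30a4, a zinc exporter, is listed at 0 and 2.14 FPKM in the shThbs2 livers, against 12.3 and 20.5 FPKM in the NC livers.

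A further 5 of the 15 are small noncoding RNAs, namely Rn7sk, at 4.67 and 4.22 FPKM in the shThbs2 livers, against 23.8 and 98.9 FPKM in the NC livers, and the near-identical small nucleolar RNA genes Rnu3b1 to Rnu3b4, the first at 0 and 3.72 FPKM in the shThbs2 livers, against 76.8 and 170 FPKM in the NC livers. These RNAs carry no poly(A) tail, their NC values differ by at least 2-fold, and the copies cannot be told apart. Without NC replicate 3, 10 of the 15 higher and 10 of the 15 lower genes kept their call, and without NC replicate 4 it was 6 and 6.

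**Figure D4:**
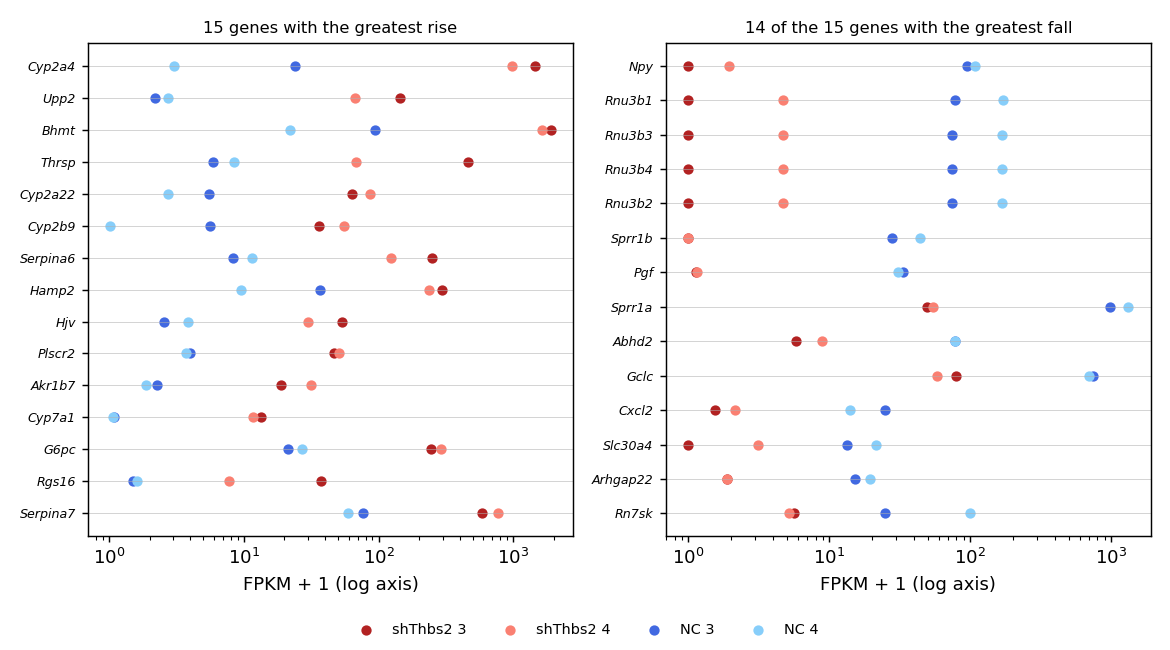
FPKM + 1 in each of the 4 libraries (horizontal log axis, 1 point per library) for the 15 genes with the greatest rise (left) and 14 of the 15 with the greatest fall (right). In every row the 2 shThbs2 points lie on 1 side of the 2 NC points, which the rule that chose these genes required. For Thrsp and Rgs16, shThbs2 replicate 3 lies far above replicate 4.

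Among the 15 genes with the greatest rise were Cyp2a4 and Cyp2b9, female-biased in mouse liver, although all 4 libraries carry RNA of the Y chromosome. Cyp2a4, a cytochrome P450, measured 1457 and 971 FPKM in the shThbs2 livers, against 23.1 and 2.02 FPKM in the NC livers (log2 change 7.12, SE 0.91, adjusted p = 0.00589). Cyp2b9, another, measured 35.2 and 54.5 FPKM in the shThbs2 livers, against 4.62 and 0.02 FPKM in the NC livers (4.23, adjusted p = 0.012). Both have close paralogs, so the assignment of reads is uncertain, and the NC libraries are far apart. Of 13 major urinary protein genes, which are male-biased and nearly identical, 0 rose and 6 fell (0 and 3 centred, 0 and 8 sum-scaled, 0 and 2 without shThbs2 replicate 4), with a median of −2.10 (−1.23 without NC replicate 4). Mup3 measured 2422 and 1257 FPKM in the shThbs2 livers, against 5805 and 7150 FPKM in the NC livers (−1.88, adjusted p = 0.0118). Mup18 measured 276 and 169 FPKM in the shThbs2 livers, against 900 and 1372 FPKM in the NC livers (−2.36, adjusted p = 0.00648). Mup22 measured 8892 and 5533 FPKM in the shThbs2 livers, against 16022 and 22234 FPKM in the NC livers (−1.43, adjusted p = 0.0173). The libraries of 1 group were themselves far apart in this list, with a median difference of 1.22 between shThbs2 replicates 3 and 4 and of −1.34 between NC replicates 3 and 4. Xist measured 0.01 and 0.02 FPKM in the shThbs2 livers and 0 in both NC livers. The Y-linked Eif2s3y measured 42.2 and 56.7 FPKM in the shThbs2 livers and 42.5 and 38.2 FPKM in the NC livers, and Ddx3y measured 52.6 and 91.8 FPKM in the shThbs2 livers and 33.7 and 37.1 FPKM in the NC livers. Of 13 genes of a wider male-biased list 1 rose and 1 fell (1 and 0 centred, 1 and 5 sum-scaled), with a median of −0.82 (−1.30 without shThbs2 replicate 3, −0.34 without shThbs2 replicate 4, −1.28 without NC replicate 3, −0.22 without NC replicate 4). Of the 5 sex-biased genes named as passing in both fits, 3 kept the call without shThbs2 replicate 3, 3 without shThbs2 replicate 4, 2 without NC replicate 3 and 1 without NC replicate 4.

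Cell type markers were those of liver, with most genes of pancreas and muscle near 0. Alb, albumin, measured 24348 and 21606 FPKM in the shThbs2 livers, against 29516 and 20493 FPKM in the NC livers (−0.10, adjusted p = 0.756), overlapping between the groups. Of the other defining hepatocyte genes, Apoa1 did not pass in either fit (0.08, adjusted p = 0.814). Ttr (0.99, adjusted p = 0.0219) and Apoc3 (1.10, adjusted p = 0.0395) rose and passed in both fits. The pancreas genes Prss2, Cpa1 and Pnlip and the muscle genes Ckm and Acta1 lay at or under 0.15 FPKM in all 4 libraries. Of 11 listed pancreas genes 9 were under the filter, at or under 0.36 FPKM in each library. The other 2 rose in both fits. The elastase gene Cela1 measured 31.2 and 31.4 FPKM in the shThbs2 livers, against 13 and 10.2 FPKM in the NC livers (1.36, adjusted p = 0.00571), and Cela2a measured 5.17 and 3.31 FPKM in the shThbs2 livers, against 0.34 and 0.45 FPKM in the NC livers (1.89, adjusted p = 0.0053). The part of other organs in these values was not tested, and the defining pancreas genes named above were at or near 0. Of the defining stellate genes, Lrat, which stores vitamin A as ester, measured 5.3 and 5.33 FPKM in the shThbs2 livers, against 7.15 and 7.62 FPKM in the NC livers (−0.41, adjusted p = 0.0665). Reln measured 12.7 and 23.7 FPKM in the shThbs2 livers, against 15.1 and 17 FPKM in the NC livers (0.11, adjusted p = 0.775). Des, desmin, measured 2.82 and 2.67 FPKM in the shThbs2 livers, against 3.24 and 3.86 FPKM in the NC livers (−0.28, adjusted p = 0.214). Pdgfrb, the PDGF receptor, measured 3.38 and 3.95 FPKM in the shThbs2 livers, against 5.85 and 5.89 FPKM in the NC livers (−0.56, adjusted p = 0.0342). It passed as deposited only (adjusted p = 0.0971 with centring). Of 18 stellate cell genes 2 rose and 4 fell (4 and 1 centred, 1 and 7 sum-scaled, 2 and 0 without shThbs2 replicate 3), with a median of −0.03 (0.20 centred, 0.04 without NC replicate 3, −0.15 without NC replicate 4). Among those that rose, Angptl6 measured 17.6 and 18.4 FPKM in the shThbs2 livers, against 2.6 and 2.8 FPKM in the NC livers (log2 change 2.36, SE 0.14, adjusted p = 0.00163). Among those that fell was Cygb, cytoglobin, at 4.79 and 6.4 FPKM in the shThbs2 livers, against 10.1 and 10.1 FPKM in the NC livers (−0.76, adjusted p = 0.0222).

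Of 21 endothelial genes 1 rose and 1 fell (4 and 0 centred, 1 and 7 sum-scaled), with a median of −0.11 (0.13 centred, 0.02 without shThbs2 replicate 3, −0.21 without shThbs2 replicate 4, 0.05 without NC replicate 3, −0.26 without NC replicate 4). The one that rose as deposited was Rspo3, the Wnt amplifier of central vein endothelium, at 5.28 and 5.51 FPKM in the shThbs2 livers, against 2.35 and 2.26 FPKM in the NC livers (0.95, adjusted p = 0.00898). Pecam1, an adhesion protein of all endothelium, fell as deposited only, at 4.93 and 6.08 FPKM in the shThbs2 livers, against 10.2 and 7.99 FPKM in the NC livers (−0.63, adjusted p = 0.0417). The other defining endothelial genes Clec4g (−0.14, adjusted p = 0.677) and Kdr (−0.11, adjusted p = 0.657) did not pass in either fit. Stab2 did not pass as deposited (0.32, adjusted p = 0.173) and was higher with centring (0.56, adjusted p = 0.0483). Of 13 pericentral hepatocyte genes 8 rose and 0 fell (8 and 0 centred, 1 and 0 sum-scaled, 2 and 1 without shThbs2 replicate 3), with a median of 0.76. Of 13 periportal genes 6 rose and 3 fell (7 and 2 centred, 3 and 5 sum-scaled), with a median of 0.57 (0.38 without NC replicate 3). Cdh1, E-cadherin, of the periportal list, measured 10.5 and 14.4 FPKM in the shThbs2 livers, against 59.9 and 70.7 FPKM in the NC livers (−2.31, adjusted p = 0.00339). Of 10 cholangiocyte genes 0 rose and 1 fell (0 and 1 centred, 0 and 4 sum-scaled), with a median of −0.24 (0.00 centred, −0.09 without shThbs2 replicate 3, −0.63 without shThbs2 replicate 4, −0.37 without NC replicate 3). The member that fell was Sox9, at 0.78 and 1.77 FPKM in the shThbs2 livers, against 8.26 and 12.2 FPKM in the NC livers (−2.32, adjusted p = 0.00541), while the keratin genes Krt7 (−0.23, adjusted p = 0.403) and Krt19 (−0.11, adjusted p = 0.717) did not pass. Of 11 T, NK and B cell genes 2 rose and 1 fell (5 and 0 centred, 1 and 2 sum-scaled), with a median of 0.31 (−0.08 sum-scaled, 0.17 without shThbs2 replicate 4). Nkg7, of cytotoxic granules, measured 2.05 and 2.34 FPKM in the shThbs2 livers, against 0.82 and 0.85 FPKM in the NC livers (0.80, adjusted p = 0.0189). The other defining genes of this list, Cd79a (−0.54, adjusted p = 0.106) and Ighm (0.44, adjusted p = 0.155), did not pass as deposited, and Cd3e was under the filter. With centring Ighm passed (0.68, adjusted p = 0.0438) and Cd79a did not. Of the 6 stellate, endothelial, periportal, cholangiocyte and lymphocyte genes named as passing in both fits, 5 kept the call without shThbs2 replicate 3, 6 without shThbs2 replicate 4, 1 without NC replicate 3 and 0 without NC replicate 4. The haemoglobin gene Hbb-bs, a measure of blood in the tissue, measured 285 and 782 FPKM in the shThbs2 livers, against 924 and 1046 FPKM in the NC livers (−1.06, adjusted p = 0.116).

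Calls also moved with transcript length. Protein-coding genes were split into 5 groups of about equal size by their longest GENCODE M21 transcript. In the group with the shortest transcripts (180 to 1898 bases) 21.7% rose and 16.4% fell, with a median log2 change of 0.07. In the group with the longest (5130 to 40378 bases) 6.91% rose and 33.3% fell, with a median of −0.37. Over the 5 groups the share that rose went down at each step and the share that fell went up. The median longest transcript was 2287 bases for features that rose in both fits, 3673 bases for those that fell in both and 3121 bases for all tested, while the median GC content was 49.4%, 49.2% and 49.3%. The part of length in the calls was not tested, and length is linked to function in the ribosomal and respiratory lists.

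**Figure D5:**
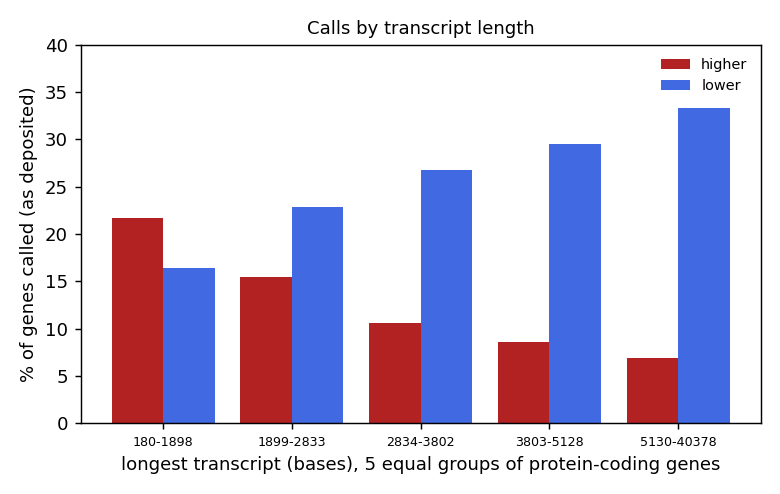
Percent of protein-coding genes that rose (red) and fell (blue) as deposited, in 5 equal groups by longest transcript length in bases (horizontal axis). Rises go down from 21.7% in the shortest group to 6.91% in the longest, and falls go up from 16.4% to 33.3%.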

How the data were processed

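Poly(A)-selected RNA of mouse liver was sequenced on the DNBSEQ-T7 at Frasergen, per the labels. The authors deposited FPKM values, rounded to 2 decimals, in 1 table of 27261 features, 26290 of them with an Ensembl identifier. Tools named in the submitters' processing notes are Bowtie2 2.3.5, HISAT2 2.1.0, HISAT and Cufflinks, with build GRCm38. None of the sources used here says which of them made this table. Without read counts the depth is unknown, and counting error cannot be stated. The strand setting is not stated, so a gene and an overlapping antisense gene cannot be told apart. The CMV table of the series, normalised separately, was not used.

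Features with an Ensembl identifier and a mean of at least 1 FPKM were fitted with limma 3.58.1 in R 4.3.3 on log2(FPKM + 1), with empirical Bayes and an intensity trend, 2 libraries per group, 2 residual degrees of freedom and Benjamini-Hochberg adjustment over all 12319 features. Alternatives were median centring, 3 rescalings of the FPKM sum (the one leaving out mitochondrial genes and their copies was chosen after seeing the data), quantile normalization, other filters and pseudocounts, a replicate block and leaving out each library. Should libraries of a group not come from separate mice, their p-values reflect only spread among libraries. GENCODE M21 gave coordinates and lengths for 26232 identifiers, and promoters are RefSeq's (GRCm38.p6).

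Members and the 56 gene lists were chosen with earlier results of these data known. Named genes are Thbs2 and 8 fibrosis reference genes, the 15 that rose most and the 15 that fell most past both fits (5 FPKM or more on average in 1 group, no predicted models), the 10 with the greatest FPKM difference, the 4 list members with the smallest p, and defining markers. For the 15 that rose most and the 15 that fell most, the rule also required groups that did not overlap in either fit. Other named genes were chosen after their values were seen. Results for a few further genes are not reported here.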

Additional observations from a re-analysis of the deposited data

How the results depend on the processing

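The depth of the libraries is unknown, and 2 libraries per group leave 2 residual degrees of freedom. The number of features that rose, 1671 as deposited, was 2616 with median centring, 841 with the same FPKM sum, 799 by an unadjusted p under 0.05 with a 2-fold change and 0 without the filter on low values. The number that fell, 3056 as deposited, was 1827, 5899, 1058 and 0 in the same order. Leaving out 1 library gave 18 to 1542 that rose and 43 to 3173 that fell, the lowest of both without NC replicate 4. The cause was not tested beyond the loss of 1 library. Within 1.5 times stayed a pseudocount of 0.1 (1676 and 3044), quantile normalization (2017 and 2277), protein-coding genes only (1615 and 3259), rescaling over genes outside the mitochondrial genome (1216 and 4319) and rescaling without the nuclear copies too (1584 and 2905). The median log2 change, −0.17 as deposited, was 0.065 with centring, −0.52 with the same FPKM sum, −0.35 rescaled over genes outside the mitochondrial genome, −0.041 with quantile normalization, −0.014 without a filter and −0.23 to −0.11 without 1 library. Samples that share a replicate number did not deviate together (r = −0.000458). With the number as a replicate block 1695 rose and 2975 fell. With block and centring 2764 rose and 1790 fell at a median of 0.065, beyond 1.5 times as with centring alone. Thbs2 kept its direction and did not pass in any of the settings that tested it, and a mean of at least 5 FPKM left it out. Of 247 other named genes, H2-DMb1 turned direction with the same FPKM sum (−0.023, adjusted p = 0.912), and calls were lost by 21 with centring, 229 without a filter, 58 and 24 without shThbs2 replicate 3 or 4 and 199 and 215 without NC replicate 3 or 4.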

Other observations

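Further gene groups gave these values. Of 18 circadian clock genes 4 rose and 3 fell (4 and 1 centred, 2 and 4 sum-scaled, 2 and 1 without shThbs2 replicate 3, 7 and 3 without shThbs2 replicate 4), with a median of 0.05 (−0.32 sum-scaled, 0.36 without shThbs2 replicate 3, −0.15 without shThbs2 replicate 4, −0.04 without NC replicate 3, 0.19 without NC replicate 4). The clock repressor gene Nr1d2 measured 59.3 and 51.5 FPKM in the shThbs2 livers, against 21 and 22.9 FPKM in the NC livers (1.30, adjusted p = 0.00558). Per1 measured 6.53 and 6.27 FPKM in the shThbs2 livers, against 13.5 and 12.9 FPKM in the NC livers (−0.94, adjusted p = 0.0081). Of 14 growth hormone and IGF axis genes 2 rose and 4 fell (3 and 2 centred, 1 and 8 sum-scaled, 1 and 2 without shThbs2 replicate 3, 0 and 2 without shThbs2 replicate 4), with a median of −0.27. Socs2, a target of growth hormone signalling, measured 2.46 and 2.97 FPKM in the shThbs2 livers, against 7.84 and 8.65 FPKM in the NC livers (−1.32, adjusted p = 0.00533). Igfbp2, an IGF carrier, measured 875 and 728 FPKM in the shThbs2 livers, against 333 and 165 FPKM in the NC livers (1.76, adjusted p = 0.0144). Of 21 coagulation and fibrinolysis genes 1 rose and 6 fell (1 and 5 centred, 0 and 12 sum-scaled), with a median of −0.28. Plaur, the urokinase receptor, measured 2.08 and 5.45 FPKM in the shThbs2 livers, against 15.4 and 20.2 FPKM in the NC livers (−2.07, adjusted p = 0.0112). Of 15 p53 targets 1 rose and 3 fell (1 and 1 centred, 0 and 8 sum-scaled), with a median of −0.38. Of 19 cell cycle genes 3 rose and 6 fell (4 and 4 centred, 1 and 9 sum-scaled), with a median of −0.23 (0.01 centred). Of 13 apolipoproteins 4 rose and 3 fell (5 and 1 centred, 2 and 4 sum-scaled, 0 and 2 without shThbs2 replicate 3), with a median of 0.07 (−0.35 sum-scaled, −0.01 without shThbs2 replicate 3, 0.15 without shThbs2 replicate 4, 0.41 without NC replicate 3, −0.24 without NC replicate 4). Apoa2, of high density lipoprotein, measured 25504 and 16321 FPKM in the shThbs2 livers, against 9097 and 6037 FPKM in the NC livers (1.46, adjusted p = 0.0179). Apom, which carries sphingosine 1-phosphate, measured 87.4 and 85 FPKM in the shThbs2 livers, against 203 and 199 FPKM in the NC livers (−1.21, adjusted p = 0.00571). Of 16 antigen presentation genes 0 rose and 2 fell (3 and 1 centred, 0 and 5 sum-scaled), with a median of 0.14 (−0.27 sum-scaled, 0.05 without NC replicate 3, 0.08 without NC replicate 4).

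Within a group some genes differed widely between libraries. A difference of at least 2-fold between the 2 libraries was seen for 332 genes of the shThbs2 livers (2.70%) and 222 of the NC livers (1.80%). In the shThbs2 livers Dbp, a clock output factor, measured 24.3 FPKM in replicate 3 and 3.58 FPKM in replicate 4, beside 2.21 and 2.95 FPKM in the NC livers. Mup7 measured 440 and 99.8 FPKM in the shThbs2 livers, against 513 FPKM in NC replicate 3 and 8169 FPKM in NC replicate 4. Mup11 measured 210 and 80.1 FPKM in the shThbs2 livers, against 307 and 1585 FPKM in the NC livers. Fatty acid synthesis genes had a median difference of 0.86 between shThbs2 replicates 3 and 4 and of −0.04 between NC replicates 3 and 4.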
